A study of Mus musculus with 73 samples.

Results

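Loss of Foxa1 and Foxa2 in the adult mouse liver was compared with control liver at 28654 FoxA binding sites whose DNA methylation was measured by whole-genome bisulfite sequencing (WGBS). The sites are those that 2 deposited tables share, out of 33302 in the table made for loss during development and 28659 in the table made for adult loss. Libraries were taken by their labels and sites by their presence in both tables. The comparison rests on 4 of the 73 samples of the series, 2 controls and 2 adult nulls.

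FoxA proteins are forkhead transcription factors that can bind DNA in closed chromatin and let other liver factors in. Methylation of cytosines in CpG pairs is typical of silent regulatory DNA, and bound enhancers in liver usually carry little of it. Methylation patterns are copied when cells divide, so that they can outlast the event that set them.

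All mice carried Foxa1L/L and Foxa2L/L, alleles that the Cre recombinase removes. Controls had no Cre and were 8 weeks old. Adult nulls were injected at 8 weeks of age with AAV8 virus carrying Cre under the hepatocyte-specific Tbg promoter and kept for 1 month. The labels name no virus and no further month for the controls, so gene loss, virus and 1 month of age cannot be told apart. The labels name no change to Foxa3, the third member of the family, in either group. DNA came from hepatocytes purified on a Percoll gradient, and cells that escaped Cre remain in the measured DNA. The methylation tables cannot show how far Foxa1 and Foxa2 were removed. The labels do not say whether the libraries of a group came from separate mice, so p-values measure only the spread between these samples. In some comparisons below, 2 developmental nulls are shown beside them. These lost both genes during liver development through an Alfp Cre transgene, were 8 weeks old and are set against the same 2 controls.

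Each site was 400 bp wide, and the 28654 sites on 17 chromosomes of the mm9 build covered 21998 separate regions. Chromosomes 1 and 2 were not in the adult table. A deposited list of hyper-methylated sites, chosen by the authors on the developmental nulls and the same controls, held 2267 of the shared sites. The tables give no coverage, so the depth behind a level is unknown. The 2 controls differed in their overall level. Control 2 stood 1.81 percentage points above control 1 over all sites, while the adult nulls differed by 0.414 points, and this gap between controls is larger than the difference between the groups given next.

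Methylation at FoxA sites was slightly lower, not higher, after adult loss of Foxa1 and Foxa2. Over all 28654 sites the mean level was 20.6% and 22.4% in the controls against 19.8% and 20.3% in the adult nulls. Both adult nulls lay below both controls. The means were 21.5% ± 1.28 (SD, n = 2) and 20.0% ± 0.293 (SD, n = 2), a difference of -1.42 points. An exact two-sided permutation test gave p = 0.333, the smallest value that 2 against 2 libraries allow. The size rests on the choice of control, being -0.509 points without control 2 and -2.32 points without control 1. The lower level held on 17 of 17 chromosomes, with differences of -1.14 to -1.67 points. On 16 of them both nulls lay below both controls (exact permutation tests, adjusted p up to 0.667). All chromosomes share the same 4 libraries, and control 2 lay above control 1 on every chromosome. These counts are therefore no separate evidence beside the difference over all sites.

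The 2267 listed sites averaged 26.5% and 29.7% in the controls and 30.0% and 29.9% in the adult nulls. Both nulls lay above both controls, by 1.86 points on average, but only narrowly above control 2. The means were 28.1% ± 2.30 and 30.0% ± 0.107 (SD, n = 2 each; exact permutation p = 0.333), and the difference was 0.228 points without control 1 and 3.48 points without control 2. The 26387 sites outside the list averaged 20.0% and 21.7% in the controls and 19.0% and 19.4% in the adult nulls, 1.70 points lower (exact permutation p = 0.333). Without control 2 this difference was -0.852 points.

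**Figure D1:**
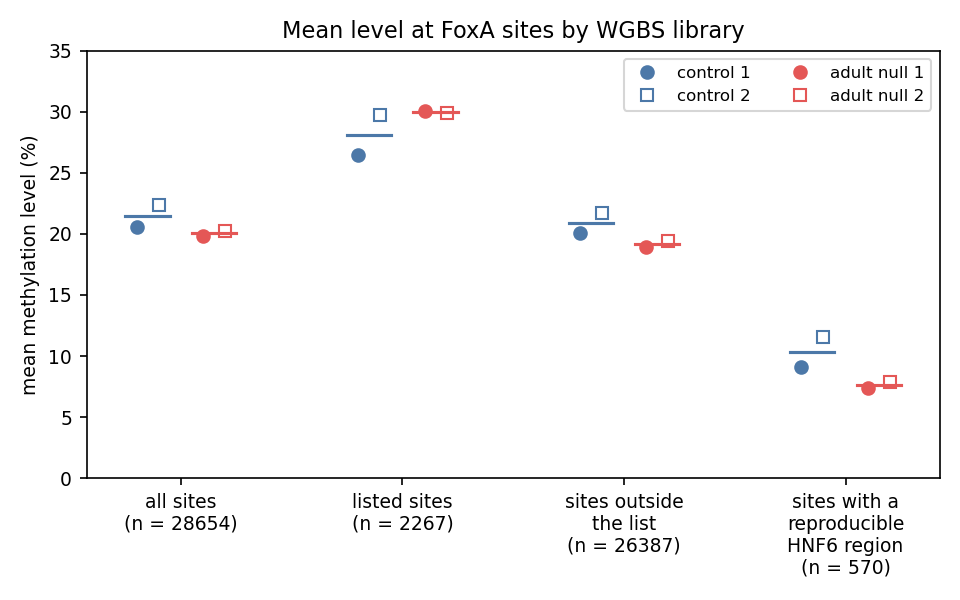
Mean methylation level in percent (vertical axis) of each WGBS library over 4 sets of sites (horizontal axis, number of sites in brackets), with controls in blue, adult nulls in red and a bar at each group mean of 2 libraries. Both red points lie below both blue points for all sites, sites outside the list and HNF6 sites, and just above control 2 for the listed sites.

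A contrast within each library removes a shift shared by all sites, but not one that varies with methylation level. Listed sites exceeded the others by 6.44 and 8.00 points in the controls and by 11.1 and 10.5 points in the adult nulls, which puts both nulls above both controls by 3.55 points on average (exact permutation p = 0.333). Leaving out 1 library at a time gave 2.77 to 4.33 points.

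The list shares its controls with this comparison, and picking sites for low controls favours a positive difference in any other group. The list was therefore rebuilt with 1 control and the adult nulls were set against the other control, an analysis added after the data had been seen. The 2652 sites chosen with control 1 averaged 32.3% in control 2 and 31.0% in the adult nulls, a difference of -1.28 points where sites outside that list differed by -2.43 points. The 2131 sites chosen with control 2 averaged 28.7% in control 1 and 30.6% in the adult nulls, a difference of 1.95 points against -0.707 points outside. On average listed sites were then 0.334 points higher and stood 1.90 points above the others, against 3.55 points with the deposited list. The direction at listed sites themselves thus differed between the 2 controls, with 1 library on each side and no test. Sites inside and outside the rebuilt lists were not matched for methylation level either.

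**Figure D2:**
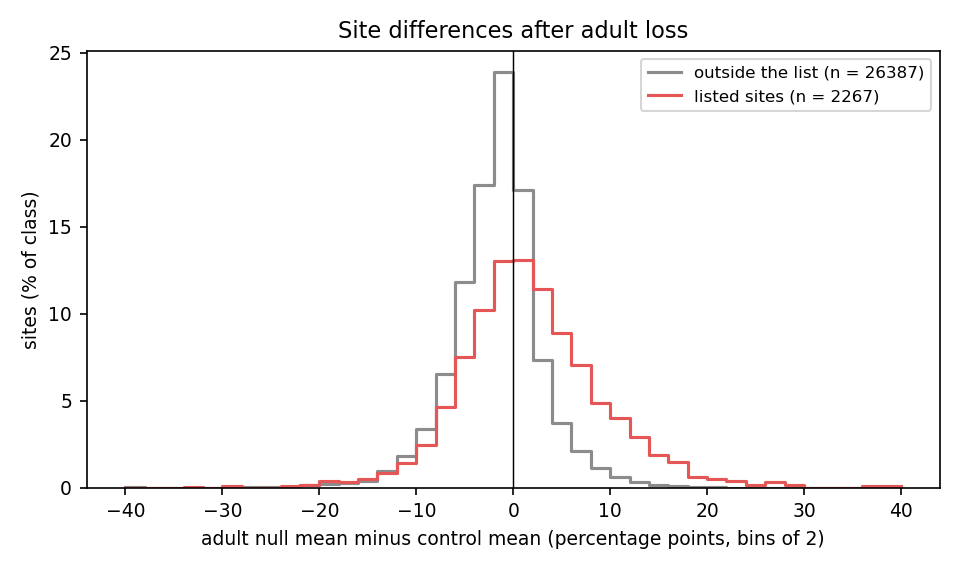
Share of sites in percent of each class (vertical axis) by adult null mean minus control mean in percentage points (horizontal axis, bins of 2 points, end bins holding all beyond 38), for 2267 listed sites in red and 26387 others in grey. The grey curve peaks below 0, and the red curve is wider and lies further right.

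The median site difference was -1.25 points over all sites, -1.39 points outside the list and 1.27 points within it. Both adult nulls lay above both controls at 2930 sites (10.2% of all) and below both at 8021 sites (28% of all). After every library was centred on the sites outside the list, which raised the nulls by 1.70 points relative to the controls, these counts were 6567 and 4663, a turn that follows from adding the same amount at every site and does not bear on its cause. Of the 2267 listed sites, 526 had both nulls above both controls and 313 had both below. These counts use the contrast's controls, which also chose the list.

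Few sites differed by much. Group means differed by more than 20 points, the size the authors used for their list, at 63 higher sites (0.22% of all) and 117 lower sites (0.408% of all). Libraries of the same group differed by that much more often, the controls at 415 sites (1.45%) and the adult nulls at 359 sites (1.25%); a mean of 2 libraries varies less than a single one, so these shares are not on 1 scale. The number of higher sites was 157 without control 2, 115 without adult null 1 and 118 without adult null 2. The number of lower sites was 250 without control 1 and 200 without adult null 1. After centring, 89 sites were higher and 75 lower, which turns the direction of the excess. Of the listed sites, 41 were over 20 points higher and 10 were over 20 points lower. Differences over 30 points were rarer, with 7 higher sites (0.0244% of all), of which 4 were listed, and 25 lower sites (0.0872% of all), of which 1 was listed.

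The typical gap between the 2 controls at a site had a median of 3.58 points, and that between the 2 adult nulls one of 2.89 points. The median size of the difference between group means was 2.74 points. It was largest where sites were half-methylated, 4.75 points among sites of 40 to 60%, and there the controls differed from each other by a median of 6.28 points.

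With limma, fitted to all sites on the percent scale with Benjamini-Hochberg adjustment at 0.05, 0 sites passed in either direction (0% of 28654), and the smallest adjusted p was 0.307. At an unadjusted p under 0.05 there were 437 higher sites (1.53%) and 1862 lower sites (6.5%). After centring these numbers were 1029 higher and 868 lower, so that the direction of the excess turned. The number of lower sites was 3015 without control 1, 862 without adult null 1 and 1069 without adult null 2, and that of higher sites ran from 330 to 552 over the 4 libraries left out. Among listed sites 157 were higher and 41 lower at an unadjusted p under 0.05 before centring. The moderated 95% interval of the difference, taken site by site and not adjusted for their number, lay wholly below a gain of 20 points at 27206 sites (94.9%). It did so at 1729 listed sites (76.3% of the list), although every listed site had gained more than 20 points in the developmental nulls by the list's own rule. The interval's median half-width was 8.88 points over all sites and 12.3 points over the list. It lay wholly above 20 points at 2 sites and wholly below -20 points at 13.

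The lower level was found at sites with little methylation. Sites were classed by their mean over the 4 libraries. The 7978 sites below 5% had levels of 2.74% and 3.85% in controls and 2.02% and 2.51% in adult nulls, a difference of -1.03 points. The 11007 sites of 5 to 20% had 9.63% and 12.0% against 7.98% and 8.85%, a difference of -2.40 points and the widest of the 6 classes. The 4405 sites of 20 to 40% had 28.5% and 30.8% against 28.0% and 28.2%, a difference of -1.53 points. In these 3 classes both nulls lay below both controls (exact permutation p = 0.333 each). Without control 2 the differences were -0.476, -1.21 and -0.365 points. Control 2 stood above control 1 by 1.11, 2.38 and 2.34 points in turn, a gap also widest at 5 to 20%.

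At more methylated sites the direction was the other one or not defined. The 2499 sites of 40 to 60% had 48.0% and 50.1% in controls and 48.8% and 48.6% in adult nulls (-0.386 points, exact permutation p = 1), and the 1494 sites of 60 to 80% had 68.7% and 69.8% against 70.0% and 69.3% (0.347 points, exact permutation p = 0.667). The groups overlapped in both classes. The 1271 sites of 80% and above had 88.9% and 88.7% in controls and 90.1% and 89.5% in adult nulls, with both nulls higher, by 1.01 points (exact permutation p = 0.333). Control 2 minus control 1 was 2.12, 1.07 and -0.214 points over these classes in turn. The gap between controls was thus still 2.12 points at 40 to 60%, where the groups overlapped, and changed sign only at 80% and above. The difference between groups was already positive at 60 to 80%, so the 2 profiles over methylation level were alike only in part. The part of the control gap in these differences was not tested.

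**Figure D3:**
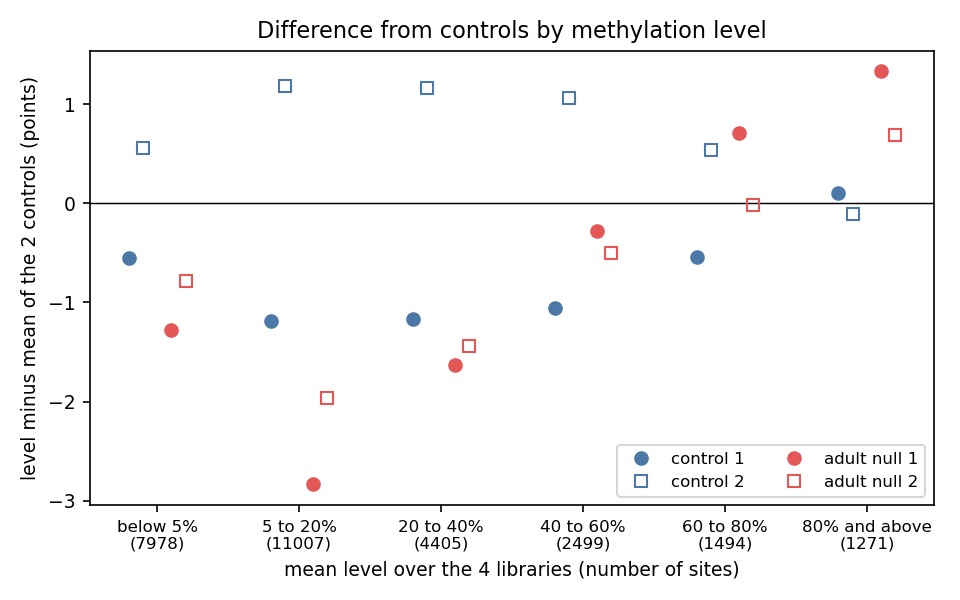
Level of each library minus the mean of the 2 controls in percentage points (vertical axis) by class of mean methylation level (horizontal axis, number of sites in brackets); controls are blue and adult nulls red. Red points lie below both blue points in the 3 lowest classes, among them in the class of 40 to 60% and for 1 library above them at 60 to 80%, and above both at 80% and above.

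Counts of nearly unmethylated sites show the same contrast. Sites below 5% made up 30.3% of all sites in control 1 and 21.1% in control 2, against 39.4% in adult null 1 and 33.7% in adult null 2. Both nulls had more such sites than either control, and the controls differed from each other by more than control 1 differed from adult null 2. Sites of 80% and above numbered 1289 and 1319 in the controls and 1372 and 1344 in the adult nulls.

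HNF6, a homeodomain factor of hepatocytes encoded by Onecut1, was mapped by chromatin immunoprecipitation in other libraries of the series. A peak in all 3 control HNF6 lists overlapped 570 of the FoxA sites, and 3.33% of these were listed sites, against 7.91% of all shared sites. Their methylation was low, 9.13% and 11.6% in controls and 7.41% and 7.91% in adult nulls. Both nulls lay below both controls, with a difference of -2.70 points (exact permutation p = 0.333; -1.47 points without control 2). The 28084 other sites, which were more methylated, differed by -1.39 points (-0.490 without control 2 and -2.29 without control 1). The part of methylation level in this contrast was not tested. Of the 570 sites, 198 (34.7%) had both nulls below both controls and 32 (5.61%) had both above, against 28% and 10.2% of all sites. The 11007 sites of 5 to 20% mean level, HNF6 or not, had close shares, 34.4% and 6.75%, and differed by -2.40 points. Sites over 10 points lower numbered 32 (5.61%) and sites over 10 points higher numbered 5 (0.877%). The shares were 4.09% and 2.22% among all sites (1172 and 636 sites) and 3.54% and 0.509% among those of 5 to 20%.

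HNF6 peaks were present in both adult null lists at 537 of these 570 sites, in 1 list at 21 and in neither at 12. The 537 sites differed by -2.76 points, and the 21 sites by -0.744 points with overlapping groups. The 12 sites without an adult peak averaged 9.43% and 14.6% in controls and 9.24% and 7.73% in adult nulls, a difference of -3.53 points. At these 12 sites the developmental nulls, against the same controls, had 26.0% and 24.8%. Listed sites, chosen for a developmental gain of over 20 points, made up 33.3% of these 12 and 2.61% of the 537. Control and adult HNF6 peaks were called with different versions of the peak caller, which can set which sites count as lost.

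The sites with the widest separation between groups show what the extremes look like. For each direction 8 sites were taken by the gap between the lowest library of one group and the highest of the other, with 1 site per overlapping group. Their differences are what chose them and are given as a description. No gene annotation of the mm9 build was used, so they are named by position.

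Of the 8 higher sites, 5 were listed sites, as were 7.91% of all shared sites. The list and this ranking use the same controls and both favour low ones, so listed sites are favoured here by the choice. The widest gap lay on chromosome 17 at 46955450 to 46955849, with 37.6% and 25.6% in controls and 78.7% and 81.3% in adult nulls. The developmental nulls had 83.5% and 80.8% there, so the adult nulls stood at their level. The difference was 48.5 points (limma SE 4.92, adjusted p = 0.307), and the adjusted p was 0.0462 after centring.

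At listed sites the developmental nulls exceed the controls by the list's rule, so that adult and developmental nulls lie on the same side at these sites by the way they were chosen. The site on chromosome 11 at 115105185 to 115105584 had 17.3% and 20.4% in controls, 44.5% and 49.7% in adult nulls and 52.1% and 50.7% in developmental nulls. A listed site that shares 343 bp with it differed by 26.7 points. The site on chromosome 8 at 96372688 to 96373087 had 46.6% and 44.4% in controls, 75.5% and 69.8% in adult nulls and 88.2% and 73.8% in developmental nulls.

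A second site on chromosome 17, at 11225209 to 11225608, had 65.3% and 66.7% in controls against 88.6% and 88.8% in adult nulls, with 95.3% and 96.7% in developmental nulls. On chromosome 9 at 23856010 to 23856409 the controls had 12% and 17.9% and the adult nulls 40% and 100%. The adult nulls there lie 60 points apart, so the mean difference of 55.0 points stands for neither library (25.0 points without adult null 2 and 85.0 without adult null 1).

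The other 3 higher sites were not in the list. On chromosome 19 at 25012504 to 25012903 the controls had 37.5% and 37.0%, the adult nulls 67.6% and 71.9% and the developmental nulls 29.7% and 35.3%. On chromosome 12 at 109919105 to 109919504 the controls had 42.5% and 55.7%, the adult nulls 82.4% and 80.1% and the developmental nulls 41.1% and 31.0%. At both sites the adult nulls stood apart from the 4 other libraries. On chromosome 15 at 95079325 to 95079724 the controls had 43.8% and 36.4% and the adult nulls 77.5% and 81.2%, while the developmental nulls had 0% and 89.5%.

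**Figure D4:**
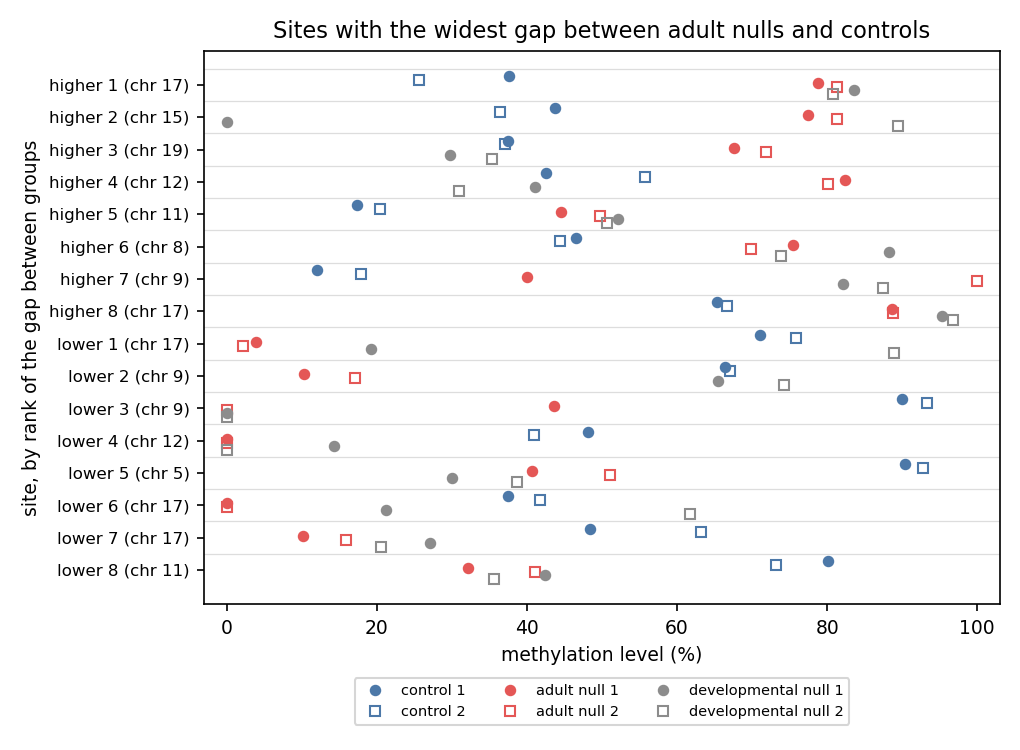
Methylation level in percent (horizontal axis) of each WGBS library at the 8 higher and 8 lower sites with the widest gap between adult nulls (red) and controls (blue), with developmental nulls in grey; sites are ranked by the gap (vertical axis). At 5 of the higher sites the grey and red points both lie above the controls, while among the lower sites the grey points range from 0 to 88.9%.

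None of the 8 lower sites was listed, against 7.91% of all shared sites, and 8 sites are too few to tell these apart. The gaps of the lower sites were wider than those of the higher sites, 32.1 to 67.1 points against 21.9 to 41.2. The list's rule favours low controls, while these 8 sites had control means of 39.6% to 91.7%, so the choice works against listed sites here. On chromosome 17 at 53622357 to 53622756 the controls had 71.0% and 75.9% and the adult nulls 3.93% and 2.17%. The developmental nulls had 19.2% and 88.9% at this site. On chromosome 9 at 50308817 to 50309216 the controls had 66.4% and 67.0%, the adult nulls 10.3% and 17.1% and the developmental nulls 65.5% and 74.2%. This site had the smallest unadjusted p of all, 1.08e-05 (limma, difference -53.0 points, SE 4.85, adjusted p = 0.307), and an adjusted p of 0.0462 after centring.

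At 5 of the 8 lower sites all 4 null libraries lay below both controls. The ranking favours sites with high controls, and the developmental nulls are set against the same controls, so the choice favours this pattern. Its share over all sites was not counted. The site on chromosome 5 at 125290082 to 125290481 had 90.4% and 92.8% in controls, 40.7% and 51.1% in adult nulls and 30% and 38.6% in developmental nulls. The 2 sites that overlap it, by 268 and 272 bp, differed by -36.4 points each. The site on chromosome 11 at 113428283 to 113428682 had 80.1% and 73.1% in controls, 32.1% and 41.0% in adult nulls and 42.4% and 35.7% in developmental nulls. The site on chromosome 12 at 53244498 to 53244897 had 48.1% and 40.9% in controls, 0% in both adult nulls and 14.3% and 0% in developmental nulls.

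On chromosome 17 at 67231232 to 67231631 the controls had 37.5% and 41.8%, both adult nulls 0%, and the developmental nulls 21.3% and 61.8%, on either side of the controls. Neighbouring windows did not always move together. On chromosome 9 at 25135611 to 25136010 the controls had 90% and 93.3%, the adult nulls 43.6% and 0% and both developmental nulls 0%. A site sharing 342 of its 400 bp had 28.8% ± 5.77 in controls and 29.9% ± 14.3 in adult nulls (SD, n = 2 each), a difference of 1.12 points. On chromosome 17 at 24484408 to 24484807 the controls had 48.4% and 63.2%, the adult nulls 10.2% and 15.8% and the developmental nulls 27.1% and 20.6%. The adult difference was -42.8 points, while a site sharing 353 bp differed by -17.4 points. How many CpGs and reads stand behind each window is unknown, and whether few reads set these levels was not tested.

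Reduced representation bisulfite sequencing (RRBS), which reads CpG-rich DNA around cut sites of a restriction enzyme, gave levels in 100 bp tiles from other libraries. These libraries took no part in choosing the WGBS sites. They came from triple nulls that also lack Foxa3, 7 and 13 days after Cre and aged 9 and 12 weeks, with controls of the same ages that lack Foxa3 and received GFP. Others came from adult double nulls aged 12 weeks after partial hepatectomy, with controls of that age given a GFP virus and the same surgery. WGBS sites were classed as higher (527 sites) or lower (1040 sites) where groups did not overlap and means differed by more than 10 points (1.84% and 3.63% of all). RRBS covered few of them, 20 to 24 higher and 39 to 46 lower sites.

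In double nulls after hepatectomy, the 27 tiles in 22 higher sites averaged 32.8%, 33.8% and 35.3% in nulls against 28.7% and 29.6% in controls. All 3 nulls lay above both controls, by 4.83 points (exact permutation p = 0.2, the least that 3 against 2 libraries can give, and adjusted p = 0.6 over 6 tests). Tiles of sites in neither class, which averaged only 8.31% in controls, differed by 0.164 points. Listed sites made up 15 of these 22, against 243 of all 527 higher sites and 7.91% of all shared sites. The 63 tiles in lower sites had 22.3%, 23.9% and 25.7% in nulls and 27.1% and 21.5% in controls, which overlap (-0.333 points, exact permutation p = 1; 2.49 points without control 1 and -3.16 without control 2).

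In triple nulls at day 7, the 57 tiles in lower sites averaged 20.5%, 20.0% and 21.1% in nulls against 23.1%, 22.8% and 26.3% in controls. All nulls lay below all controls (-3.52 points; exact permutation p = 0.1, the least that 3 against 3 libraries can give, and adjusted p = 0.6). Tiles of sites in neither class, which averaged 8.29% in controls, were also lower in all 3 nulls (-1.54 points). The 31 tiles in higher sites had 36.4%, 32.2% and 36.4% in nulls and 36.7%, 31.4% and 31.4% in controls, which overlap (1.86 points, exact permutation p = 0.4; 0.968 without control 2, 0.988 without control 3, 1.15 without null 1, 1.16 without null 3, 3.27 without null 2 and 3.62 without control 1). At day 13, tiles in higher sites differed by 2.19 points with overlapping groups (exact permutation p = 0.667; -0.482 points without control 1 and 4.87 without control 2), and tiles in lower sites by -0.973 points with both nulls lower (exact permutation p = 0.333). Tiles of sites in neither class differed by -1.12 points at day 13, also with both nulls lower. In points the lower sites thus fell no further than these, although control levels were unlike, 24.5% at lower sites and 7.06% in neither class.

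**Figure D5:**
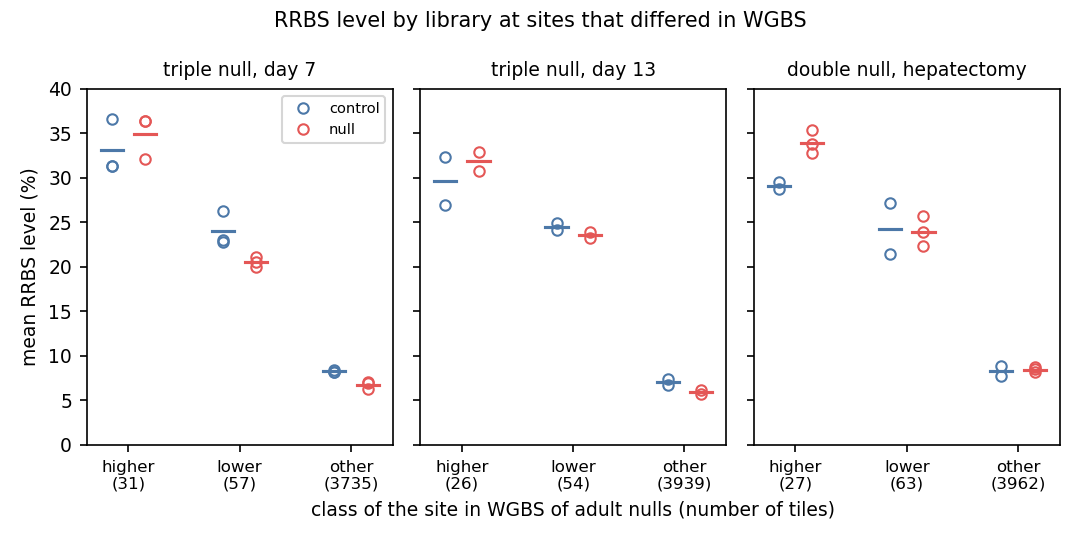
Mean RRBS level in percent (vertical axis) of each library over tiles in sites that were higher, lower or neither in WGBS of adult nulls (horizontal axis, number of tiles in brackets), for 3 experiments with controls in blue, nulls in red and bars at group means. Nulls lie above controls at higher sites after hepatectomy. On day 7 and day 13 they lie below controls at lower sites and also at sites in neither class. In the remaining classes the groups overlap.

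The same tiles differed by age in control liver. With 1 RRBS library per age and no replicate, the 54 tiles in WGBS-lower sites had 43.0% in the library of 20 days, 29.6% in that of 8 weeks, 23.2% in that of 4 months and 21.9% in that of 6 months. From 8 weeks to 4 months the level fell by 6.44 points. The 24 tiles in WGBS-higher sites had 42.9%, 32.9%, 30.6% and 30.5% at the same ages, and the 3503 tiles of sites in neither class had 11.4%, 8.71%, 7.62% and 6.89%. Every class was thus lower at each later age. The adult nulls were 1 month older than the age given for their controls, and the part of age in the lower WGBS level was not tested.

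RRBS tiles lay inside only 1 named site of each direction. In the listed site on chromosome 11, the tile at 115105201 to 115105300 ranged from 2.86% to 96.2% over 27 libraries with a median of 47.6%. It had 70.0%, 65.5% and 65.1% in day 7 triple nulls against 84.8%, 38.5% and 69.2% in their controls, and 6.52%, 14.8% and 8.33% after hepatectomy in double nulls against 37.5% and 24.6% in controls. At day 13 it had 94.4% and 96.2% in triple nulls against 50.8% and 85.4% in controls. Nulls lay above controls at day 13, as in WGBS, overlapped them at day 7 and lay below them after hepatectomy. In the lower site on chromosome 9, the tile at 50309001 to 50309100 had 9.09%, 0% and 0% in double nulls after hepatectomy against 37.5% and 9.68% in controls, and 6.25%, 11.1% and 0% in day 7 triple nulls, all but 1 of them below the controls at 10.7%, 17.5% and 32.1%. At day 13 the tile had 0% and 10.7% in triple nulls and 5.56% and 0% in controls, which overlap. In this tile, control liver had 5% at an age of 20 days, 67.9% at 8 weeks, 0% at 4 months and then 25% when 6 months old, so single libraries of control liver spanned the whole WGBS difference.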

How the data were processed

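WGBS levels were deposited by the authors as 1 fraction per 400 bp FoxA site, and RRBS levels as 1 fraction per 100 bp tile; both were multiplied by 100. The submitters' processing notes name Trim Galore 0.3.3, BSMAP 2.74 and the mm9 build. How reads became site levels is not stated in the labels or headers. Control levels came from the developmental table. One column of the adult table, headed as a developmental null, held control 2 at 100% of shared sites, and it was used for that check only. HNF6 peaks were called with MACS 2.1.1 (controls) and MACS 1.4.3 (adult nulls), per the file headers. Only peak positions were used, with an overlap of 1 bp; deposited fold enrichments, −log10 p-values and scores were not.

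Sites were tested with limma 3.58.1 (R 4.3.3) on percent values, allowing a variance trend, over 6 WGBS libraries with 3 residual degrees of freedom. Library means were compared by two-sided exact permutation tests (scipy 1.17.1, Python 3.11.15). Adjusted p-values are Benjamini-Hochberg values. The fit was tested on simulated data. Named sites are the 8 per direction with the widest gap between groups. Members, classes and tests were chosen with earlier results of these data known. Alternatives were other filters, scales, centring, a replicate block and leaving out each library. Planned coverage-based tests were not possible without counts.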

Additional observations from a re-analysis of the deposited data

Results flagged for a closer look

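In several sets of sites both adult nulls lay below both controls while both developmental nulls lay above them. The comparisons share their 2 controls, and the difference between them was not tested. Over all sites the adult nulls differed from controls by -1.42 points and the developmental nulls by 4.08 points. Outside the authors' list, which was chosen on the developmental nulls, the values were -1.70 and 1.70 points. At sites without a reproducible HNF6 region they were -1.39 and 4.15 points. By mean level, they were -1.03 and 0.676 points below 5%, -2.40 and 3.31 points from 5 to 20%, and -1.53 and 9.06 points from 20 to 40%. These classes were set by the controls and adult nulls, which favours higher developmental nulls in the low classes. Classed by their own level, the developmental nulls had 2.53% and 2.44% below 5%, under the controls at 3.78% and 5.04%, and overlapped them at 5 to 20% (10.3% and 10.0% against 8.30% and 10.4%). That classing favours the opposite direction.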

How the results depend on the processing

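With limma, 0 sites passed in either direction except in 2 alternatives. Among 20469 sites of 5 to 95% mean level, 1 was higher (chromosome 17, 46955450) and 3 were lower. After centring on sites outside the list, 1 was higher and 1 lower, each with adjusted p = 0.0462. Replicate numbers do not pair the libraries (correlation of deviations 0.0082 between controls and adult nulls); with a replicate block 0 sites passed, and 2234 had an unadjusted p under 0.05 against 2299 without it. Sites apart by group numbered 6567 higher and 4663 lower after centring, against 2930 and 8021. Sites over a limit of 10 points numbered 636 higher and 1172 lower, over 30 points 7 and 25, and over 20 points after centring 89 higher and 75 lower, against 63 and 117. Leaving out 1 library gave 91 to 157 higher and 155 to 250 lower sites over 20 points.

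Leaving out 1 library, the class of 40 to 60% ranged from -1.45 to 0.673 points (positive without control 2) and that of 60 to 80% from -0.190 to 0.884 (negative without control 1 or adult null 1). The 3 lower classes and that of 80% and above kept their direction.

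RRBS at WGBS-higher sites of any size differed by -0.409 points at day 7 and -0.399 at day 13, and at WGBS-lower sites by 0.206 after hepatectomy. With WGBS differences over 20 points, 3 tiles gave 0.673 points for lower sites at day 13 and 2 tiles -8.04 for higher sites after hepatectomy. Leaving out 1 library gave -0.482 to 4.87 points for higher sites at day 13 and -3.16 to 2.49 for lower sites after hepatectomy. The cause of these changes was not tested. Coverage minimums could not be applied, and precision is limited by 2 libraries per group.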

Other observations

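Levels of exactly 0 were recorded at 1272 and 642 sites in the controls and at 1752 and 1185 sites in the adult nulls. Across sites the 6 pairs of WGBS libraries correlated with r of 0.958 to 0.967, a description over sites that are not independent.

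In the tile at 115105201 to 115105300 on chromosome 11, livers that kept 1 allele each of Foxa1 and Foxa2 had 72.3% and 86.7%, and livers with 1 Foxa2 allele left had 27.8% and 46.7%. Control livers of the age series ranged from 4.29% to 50% in that tile. Controls of the triple nulls, which lack Foxa3, had 38.5% to 84.8% at day 7 and 50.8% and 85.4% at day 13. Hepatectomy controls had 24.6% and 37.5%.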
